A study of Homo sapiens with 6 samples.

Results

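The adhesion G protein-coupled receptor (GPCR) genes were taken as the protein-coding genes whose symbol is ADGR followed by a subfamily letter and a number, ADGRB1 among them. In the RefSeq gene table of GRCh38.p14 the rule found 28 genes of the 20037 protein-coding genes on chromosomes 1 to 22, X and Y. They belong to subfamilies A (3 genes), B (3), D (2), E (4), F (4), G (7), L (4) and V (1). The CELSR genes of subfamily C carry other symbols and were left out by the rule, and ADGRF2P and ADGRE4P, which carry the ADGR prefix, are annotated as pseudogenes.

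The study mapped thymidine glycol (Tg), an oxidised form of thymidine in DNA, in HEK293T, an established human embryonic kidney cell line. NTHL1, a glycosylase that removes Tg, was linked covalently to fragmented genomic DNA where it had cut out the damaged base, and the linked fragments were enriched and sequenced (DPC-Seq). The groups were 2 labelled libraries of cells with the genotype NTHL1-/-,NEIL1-/- (double knockout), 2 labelled libraries of wild-type cells, and 1 input library of each genotype (6 in all), with no drug treatment in the labels. How the genes were disrupted, and from how many clones the double-knockout cells came, is not given in the sources used here. The deposited data are 1 list of sites per genotype, so no value has a spread between replicates and no test between the genotypes was possible. The intervals below are exact 95% Poisson or binomial intervals and cover counting error only. The lists hold DNA positions and no transcripts, so the cell line could not be checked against marker genes.

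Adhesion GPCRs join a long extracellular part, which binds neighbouring cells or matrix, to a membrane part with the helices typical of GPCRs. Most are cut within the GAIN domain during maturation, and a short stretch exposed beside the cut, the tethered agonist, activates the receptor. Many members are known from the nervous system, others from immune cells, vessels and epithelia. Tg is repaired by base excision, started mainly by NTHL1 and, among others, NEIL1, the enzymes missing from the double knockout.

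The 28 genes held 25 double-knockout sites (interval 16.2 to 36.9) and 13 wild-type sites (6.92 to 22.2). In the double knockout 12 of the 28 genes held at least 1 site (42.9%), against a background of 14% of all protein-coding genes. In wild type 9 of the 28 held a site (32.1%), against a background of 5.88%. Sites in both lists were found in 7 genes (background 5.09%), a double-knockout site alone in 5 (background 8.87%), and a wild-type site alone in 2 (background 0.799%). The other 14 genes held no site in either list. At least 2 double-knockout sites lay in 7 members (background 4.31%) and at least 2 wild-type sites in 3 (background 1.44%). The members are longer than most genes, with a median of 66.6 kb against 24.1 kb over all protein-coding genes, and longer genes have more room for a site, so shares by length are given further on. Over the 4.69 Mb of family gene body the density was 5.34 double-knockout sites per Mb (3.45 to 7.88) and 2.77 wild-type sites per Mb (1.48 to 4.74). The same densities over all protein-coding genes were 3.51 and 1.31 sites per Mb. With 1 site kept per 100 kb, the family's density was 2.56 double-knockout and 1.71 wild-type sites per Mb, against 2.36 and 0.968 over all protein-coding genes. With only sites at or above the wild-type median of −log10 p, it was 2.56 and 1.28 per Mb, against 2.04 and 0.633.

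**Figure D1:**
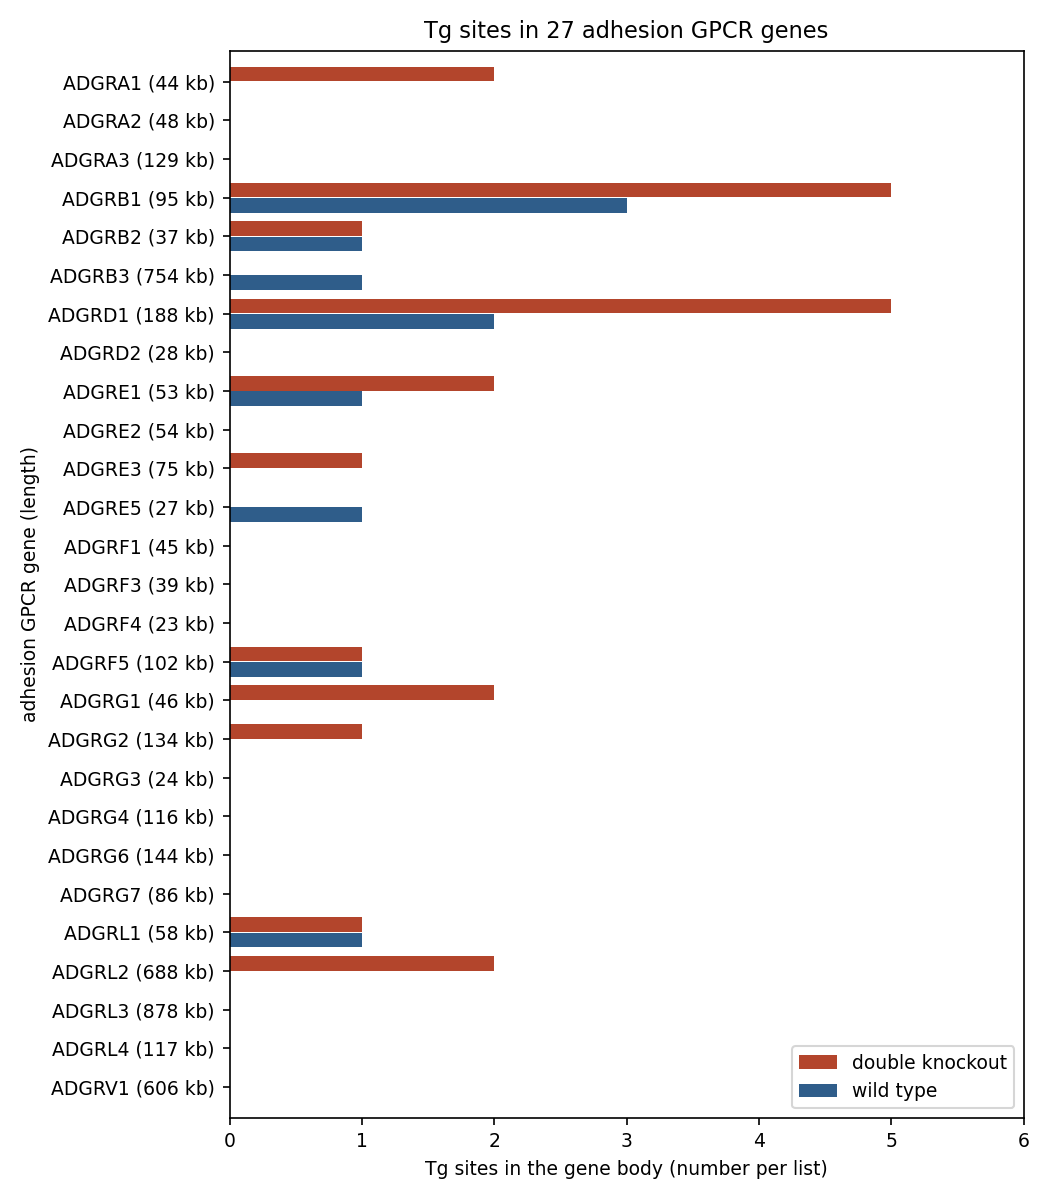
Number of Tg sites in the body of each of 27 adhesion GPCR genes, with gene length in brackets; the upper bar of each pair is the double-knockout list and the lower bar the wild-type list. ADGRB1 and ADGRD1 stand out with 5 double-knockout sites each, and 14 genes have no bar.

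Subfamily B, the brain angiogenesis inhibitor receptors, held the most wild-type sites (5, beside 6 double-knockout sites). Its wild-type density was 5.64 sites per Mb, below the 9.56 of subfamily E and the 9.27 of subfamily D. Each of its 3 genes held a site in at least 1 list, against a background of 14.8% of all protein-coding genes. ADGRB1 (BAI1) is a receptor for phosphatidylserine on dying cells that signals through ELMO1 and DOCK1 to take them up. It spans 95.4 kb of chromosome 8 (142449649 to 142545007) and held 5 double-knockout sites (1.62 to 11.7) and 3 wild-type sites (0.619 to 8.77). At the average rate of its chromosome a gene of this length would hold 0.202 double-knockout and 0.0736 wild-type sites. The 500 kb on either side were denser than that, with 2.90 and 1.10 sites per 100 kb, against 5.24 and 3.15 in the gene. At least 5 double-knockout sites were found in 0.554% of all protein-coding genes, and at least 3 wild-type sites in 0.509%.

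The strongest ADGRB1 site was found in both lists. In the double knockout it ran from 142529209 to 142530336, with 28 reads at its summit (18.6 to 40.5) and a fold enrichment over background of 6.93. In wild type it ran from 142529367 to 142530309, with 18 reads (10.7 to 28.4) and a fold of 5.88. It was the widest family site of the wild-type list (943 bp) and spanned 1128 bp in the double knockout. A second shared site lay nearer the lower end of the gene, at 142469215 to 142469705 in the double knockout (19 reads, fold 4.36) and 142469222 to 142469817 in wild type (13 reads, fold 4.69). That site also lies in LOC124902075, a long non-coding RNA gene. The other 3 double-knockout sites had folds of 3.92, 3.53 and 3.48 and no overlapping wild-type site. The third wild-type site (142501255 to 142501497, 12 reads, fold 3.27) lay 1.25 kb from the nearest of them and overlapped none. In wild type, 96.2% of all listed sites had a higher −log10 q than that site, so it was close to the limit of the list.

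ADGRB2, which encodes the closely related receptor BAI2, held 1 site in each list, and the 2 sites overlapped by 518 bp. On chromosome 1 the double-knockout site ran from 31747009 to 31747844 (21 reads, fold 6.02) and the wild-type site from 31746955 to 31747526 (16 reads, fold 5.26), near the middle of the 37.2 kb gene. ADGRB3, the synaptic receptor for C1q-like proteins, is 754 kb long and held no double-knockout site. Its single wild-type site (chromosome 6, 69093320 to 69093575, 12 reads, fold 5.45) was 1154 kb away from the nearest double-knockout site. The chromosome's rate would give ADGRB3 2.23 double-knockout and 0.871 wild-type sites.

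ADGRD1 (GPR133), a receptor that signals through Gs and cyclic AMP, held 5 double-knockout sites (1.62 to 11.7) and 2 wild-type sites (0.242 to 7.22) along 188 kb of chromosome 12 (130953907 to 131141469). Each wild-type site overlapped a double-knockout one. The first pair lay 3.31 kb inside the lower-coordinate end of the gene, with 22 reads and a fold of 5.81 in the double knockout (130956835 to 130957602), against 12 reads and a fold of 4.95 in wild type (130956823 to 130957486). The second pair had 30 reads, the most of any double-knockout family site, and a fold of 5.02 in the double knockout (131017190 to 131018064), against 18 reads and a fold of 4.78 in wild type (131017100 to 131017843). The other 3 double-knockout sites were weaker, with 13 to 15 reads and folds of 4.38, 4.04 and 3.34. Its relative ADGRD2 (28.1 kb, chromosome 9) held no site.

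**Figure D2:**
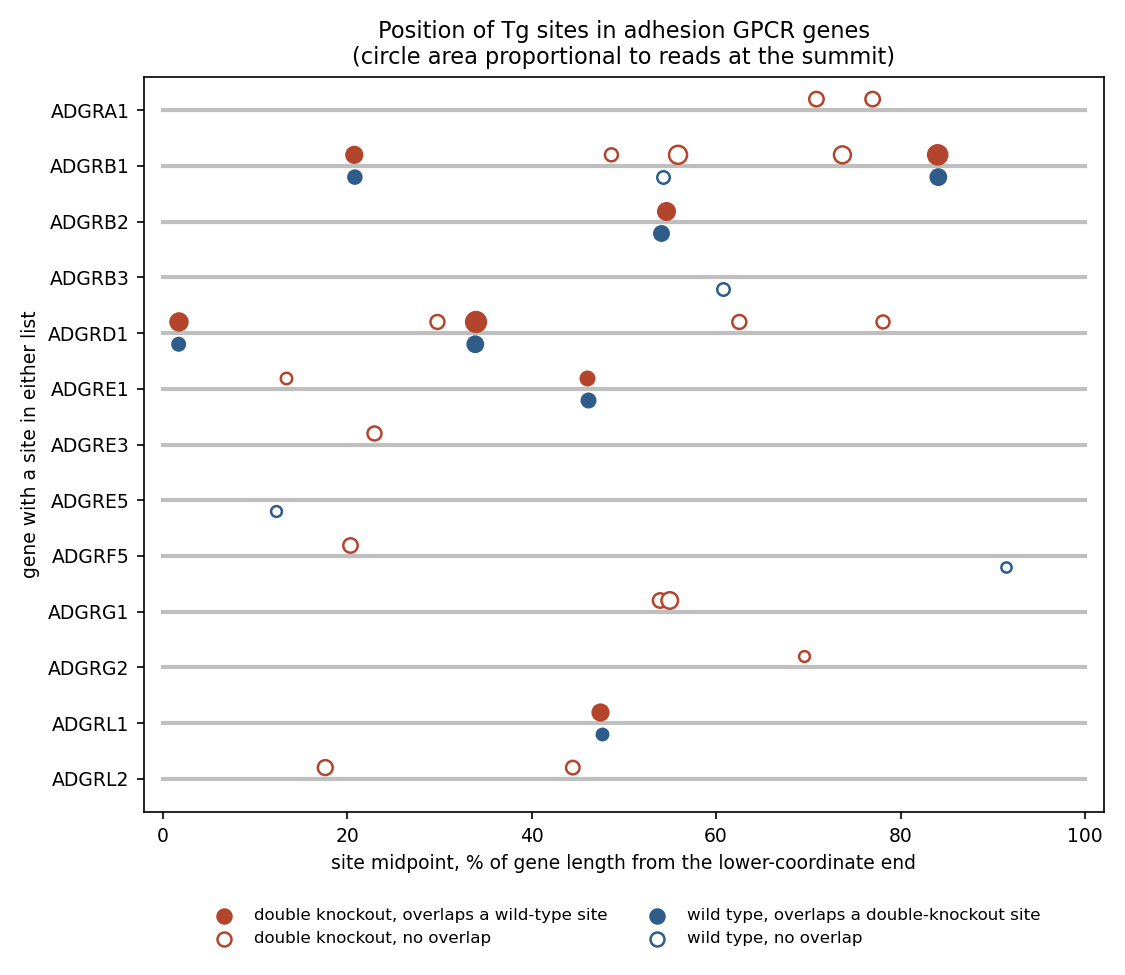
Position of the sites in 13 genes that held one, as a percentage of gene length from the end with the lower coordinate; double-knockout sites are drawn above each line and wild-type sites below it, filled where the lists overlap and with circle area proportional to reads. The 7 filled pairs lie in 5 genes, and ADGRB1 and ADGRD1 each carry 2 of them.

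In subfamily G, ADGRG1 (GPR56), a receptor needed for the layering of the cerebral cortex, held 2 double-knockout sites 0.162 kb apart and no wild-type site. These lay on chromosome 16 at 57644280 to 57644625 (16 reads, fold 3.41) and 57644788 to 57645078 (21 reads, fold 5.25), in the middle of the gene. The nearest wild-type site was 74.2 kb away. ADGRG2, the receptor of the epididymis known as HE6, held 1 double-knockout site on chromosome X (19082059 to 19082382, 9 reads, fold 4.19) and none in wild type. ADGRG3, ADGRG4, ADGRG6, which drives myelination by Schwann cells, and ADGRG7 held none, although ADGRG3 lies directly beside ADGRG1.

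The subfamily E genes, receptors of myeloid cells with EGF-like repeats, held 3 double-knockout and 2 wild-type sites. ADGRE1, whose mouse counterpart is the macrophage marker F4/80, held a shared site on chromosome 19 that also lies in LOC105372256, a long non-coding RNA gene. In the double knockout it ran from 6911670 to 6912088 (14 reads, fold 5.01), and in wild type from 6911680 to 6912219 (14 reads), with the highest fold of any family site, 7.41. A second double-knockout site of ADGRE1 (6894446 to 6894864, 10 reads, fold 4.02) had no wild-type partner. ADGRE3 held 1 double-knockout site (14617041 to 14617474, 15 reads, fold 6.17) and no wild-type site. ADGRE5 (CD97), which binds CD55, held no double-knockout site and 1 wild-type site (14384686 to 14384928, 9 reads, fold 4.53). ADGRE2, its close relative, held none. All of subfamily E lies on chromosome 19 together with ADGRL1, and 18.95% of all protein-coding genes on that chromosome held a double-knockout site and 8.41% a wild-type site.

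Subfamily L holds the latrophilins ADGRL1, ADGRL2 and ADGRL3, receptors for teneurins and FLRT proteins at synapses, and ADGRL4. ADGRL1 held 1 site in each list. These overlapped by 234 bp, at 14175234 to 14175680 in the double knockout (19 reads, fold 6.17) and 14175447 to 14175706 in wild type (10 reads, fold 4.42). ADGRL2 (688 kb) held 2 double-knockout sites on chromosome 1, 184 kb apart (81427122 to 81427626 with 17 reads and fold 5.55, and 81611774 to 81612116 with 14 reads and fold 5.01). The first also lies in the pseudogene HNRNPA3P14. It held no wild-type site, and the nearest one was 1344 kb away. ADGRL3, the longest member at 878 kb, and ADGRL4, an endothelial receptor, held no site.

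ADGRA1 held 2 double-knockout sites near the tip of chromosome 10 (133118807 to 133119062, fold 4.49, and 133121472 to 133121727, fold 3.16), with 16 reads each, and no wild-type site. Both had the smallest width of the double-knockout list, 256 bp, a width that 6.45% of all double-knockout sites had. ADGRA2, which with RECK serves as a co-receptor for Wnt7 in brain vessels, and ADGRA3 held none. In subfamily F, ADGRF5, a receptor that restrains surfactant in the lung, held 1 site in each list. These did not overlap and lay 72.4 kb apart, at 46873084 to 46873613 of chromosome 6 in the double knockout (16 reads, fold 6.72) and 46946010 to 46946304 in wild type (8 reads, fold 4.58). ADGRF1, ADGRF3 and ADGRF4 held none. ADGRV1, the very long receptor of hair cell stereocilia that is mutated in Usher syndrome, held none over 606 kb, where the rate of chromosome 5 would give 1.44 double-knockout and 0.547 wild-type sites.

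The family sites were of middling strength within their lists. Folds ranged from 3.16 to 6.93 in the double knockout (median 4.84, against 4.93 over the whole list) and from 3.27 to 7.41 in wild type (median 4.78, against 5.12). Reads at the summit ranged from 9 to 30 in the double knockout, median 16, and from 8 to 18 in wild type, median 13. By −log10 q, the family's first site was number 803 of 9373 in the double knockout and number 589 of 3688 in wild type. Above the median −log10 q of their list lay 11 double-knockout and 6 wild-type family sites. Some sites found in 1 list only ranked low. Among all wild-type sites 83.1% had a higher value than that of ADGRE5 and 85.6% than that of ADGRF5, against 48.7% for ADGRB3. In the double knockout the share was 90.5% for the ADGRG2 site, against 36.5% for the ADGRE3 site.

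Of the 25 double-knockout family sites 8 overlapped a wild-type site (32.0%, interval 14.9% to 53.5%), against 28.3% of the whole double-knockout list. The same 8 pairs made up 61.5% of the 13 wild-type family sites (31.6% to 86.1%), against 75.3% of the whole wild-type list, which lies inside the interval. Shared family sites were the wider ones by median. Their median width was 722.5 bp in the double knockout, against 347 bp for the 17 unshared ones, and 584 bp in wild type, against 243 bp for the 5 unshared ones. Over the whole lists shared sites were wider too, with medians of 590 bp against 364 bp in the double knockout and 419 bp against 295 bp in wild type. Of the 13 wild-type family sites 3 had the smallest width that the list holds, 243 bp, a width that 9.16% of all wild-type sites had. All 3 were unshared.

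Reads at the shared sites were set side by side after double-knockout reads were divided by 1.69, the ratio of the lists' lowest backgrounds. That ratio holds both sequencing depth and fragment length, for which the narrowest site width of each list stood in, and depth alone gave 1.61. Scaled in this way, the 8 sites had 8.27 to 17.7 reads in the double knockout and 10 to 18 reads in wild type. The double-knockout to wild-type ratio ranged from 0.591 at ADGRE1 to 1.12 at ADGRL1, with a median of 0.952. It was below 1 at 5 sites, and at all 8 the counting interval held 1. The summed reads gave a ratio of 0.919 (0.725 to 1.17), against 0.908 over the 2776 shared wild-type sites of the whole list. The median ratio of the whole list was 0.945. For the whole list each wild-type site was set against its strongest overlapping double-knockout site. A difference in reads at these sites was not detectable at this depth.

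**Figure D3:**
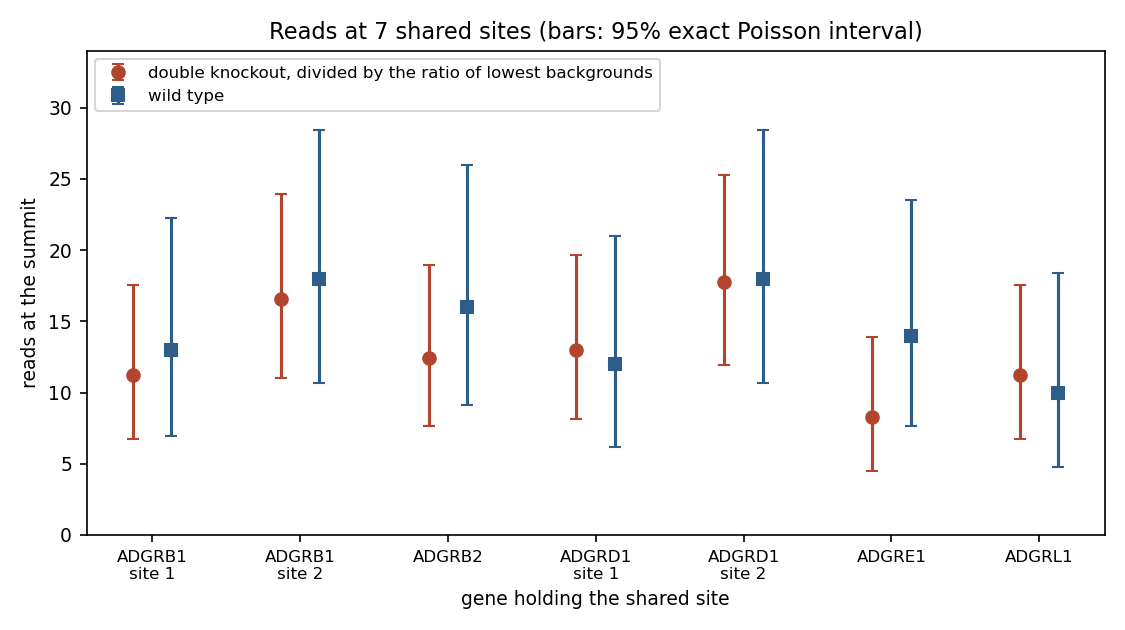
Reads at the summit of 7 shared sites, by gene; circles are double-knockout reads divided by 1.69, the ratio of the lowest backgrounds, squares are wild-type reads, and bars are 95% exact Poisson intervals. At every site the intervals of both genotypes overlap.

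The double-knockout list held 1.92 times as many family sites as the wild-type list (0.947 to 4.09), and 2.54 times as many sites in all. The lowest background was 1.25 reads in the double knockout and 0.739 in wild type, which sets the lists at unequal depth, so both were also counted above one threshold, 8.46, the wild-type median of −log10 p. Above it lay 12 double-knockout and 6 wild-type family sites. With double-knockout reads reduced to the wild-type depth, 5.25 double-knockout family sites would be expected above it, a ratio of 0.875 to the 6 in wild type. The same calculation over all sites gave a ratio of 1.29. No interval was computed for these ratios, and the one for the family rests on few sites.

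Sites were sparser in the longest members than in the others. The 11 members under 50 kb held 7 double-knockout and 4 wild-type sites, in 4 and 3 genes (36.4% and 27.3%). Backgrounds for all protein-coding genes under 50 kb were 7.58% and 2.99%. That class includes genes shorter than the shortest member (23.4 kb), which have less room for a site, so lengths within it are not matched. The 13 members of 50 to 200 kb held 16 and 8 sites in 7 and 5 genes (53.8% and 38.5%, with backgrounds of 22.2% and 9.53%). The 4 members over 200 kb, ADGRB3, ADGRL2, ADGRL3 and ADGRV1, make up 62.4% of the family's length and held only 2 double-knockout sites, in 1 gene, and 1 wild-type site, in another (25% each, with backgrounds of 48.2% and 21.7%). Their density was 0.684 double-knockout sites per Mb (0.0828 to 2.47), against 2.77 for all protein-coding genes of that length. The wild-type density was 0.342 per Mb (0.00865 to 1.90), against 0.960. The 24 shorter members reached 13.1 double-knockout and 6.82 wild-type sites per Mb. Over all protein-coding genes the density fell with length too. It was 5.65 double-knockout and 2.17 wild-type sites per Mb under 50 kb, and 3.38 and 1.34 at 50 to 200 kb.

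**Figure D4:**
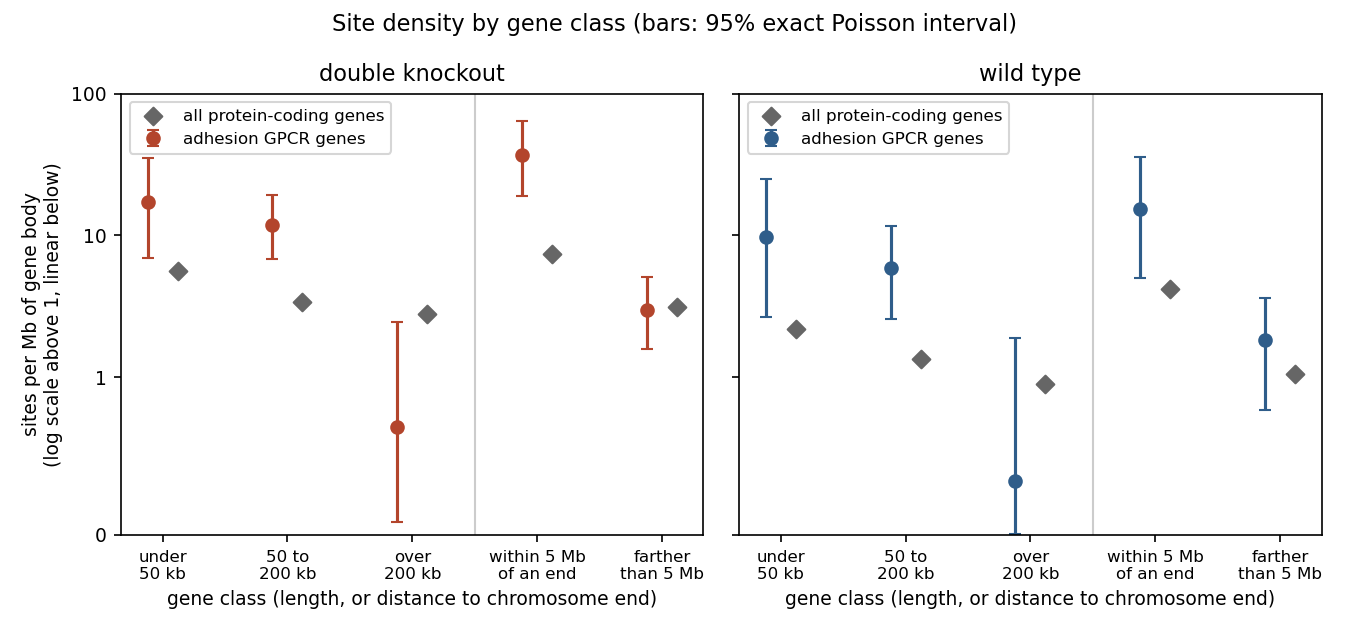
Sites per Mb of gene body by gene length and by distance to the chromosome end, in the double knockout (left) and wild type (right); coloured points are adhesion GPCR genes with 95% exact Poisson intervals, grey diamonds all protein-coding genes, and the axis is logarithmic above 1. Members over 200 kb lie below the diamond, and those within 5 Mb of an end reach 36.7 and 15.3 sites per Mb.

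Many of the double-knockout sites lay in genes near a chromosome end. The end was taken as the last position reached by any gene or site, and the midpoints of ADGRA1, ADGRB1 and ADGRD1 lie 0.669, 2.56 and 2.19 Mb from it, with no other member within 5 Mb. These 3 genes held 12 of the 25 double-knockout sites (48%) and 5 of the 13 wild-type sites (38.5%). All 3 held a double-knockout site and 2 a wild-type site, with backgrounds of 14.9% and 8.98% for protein-coding genes that near an end. Their density was 36.7 double-knockout sites per Mb (18.98 to 64.2) and 15.3 wild-type sites per Mb (4.97 to 35.7), against 7.41 and 4.16 for all protein-coding genes that near an end. The remaining 25 members had 2.98 double-knockout sites per Mb (1.59 to 5.10), against 3.15 for all protein-coding genes away from the ends. In wild type these 25 had 1.84 per Mb (0.792 to 3.62), against 1.05. Of their 4.36 Mb, 2.93 Mb lies in the 4 members over 200 kb, which held only 2 double-knockout sites and 1 wild-type site. The density of the 25 is thus weighted to those long genes and does not give that of the shorter members.

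Members with many sites were also compared with the DNA around them. In the 500 kb on either side of ADGRB1 lay 29 double-knockout sites and 11 wild-type sites (2.90 and 1.10 per 100 kb). Those of ADGRD1 held 26 and 9, and those of ADGRA1 held 23 and 19. The flanks of ADGRB3, ADGRL2, ADGRL3 and ADGRV1 held no site in either list, although ADGRL2 itself held 2 double-knockout sites and ADGRB3 1 wild-type site. Of the 10 members with at least 1 double-knockout site per 100 kb of flank, 8 held a double-knockout site themselves, against 4 of the 18 members with sparser flanks. Over the 28 genes the rank correlation between the density in the gene and in its flanks was 0.65 in the double knockout and 0.38 in wild type. Neighbouring members share flanks (ADGRG1 and ADGRG3 on chromosome 16, for example), so the 28 points are not independent. Sites in a member also counted as flank sites of its neighbours, so the gene and flank densities have some sites in common. In wild type, ADGRA1 had the densest flanks of any member (1.90 per 100 kb) and no site, while ADGRF5 held a site with none in its flanks. In the double knockout, ADGRG3 and ADGRE5 held no site with 1.5 and 1.0 sites per 100 kb of flank.

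**Figure D5:**
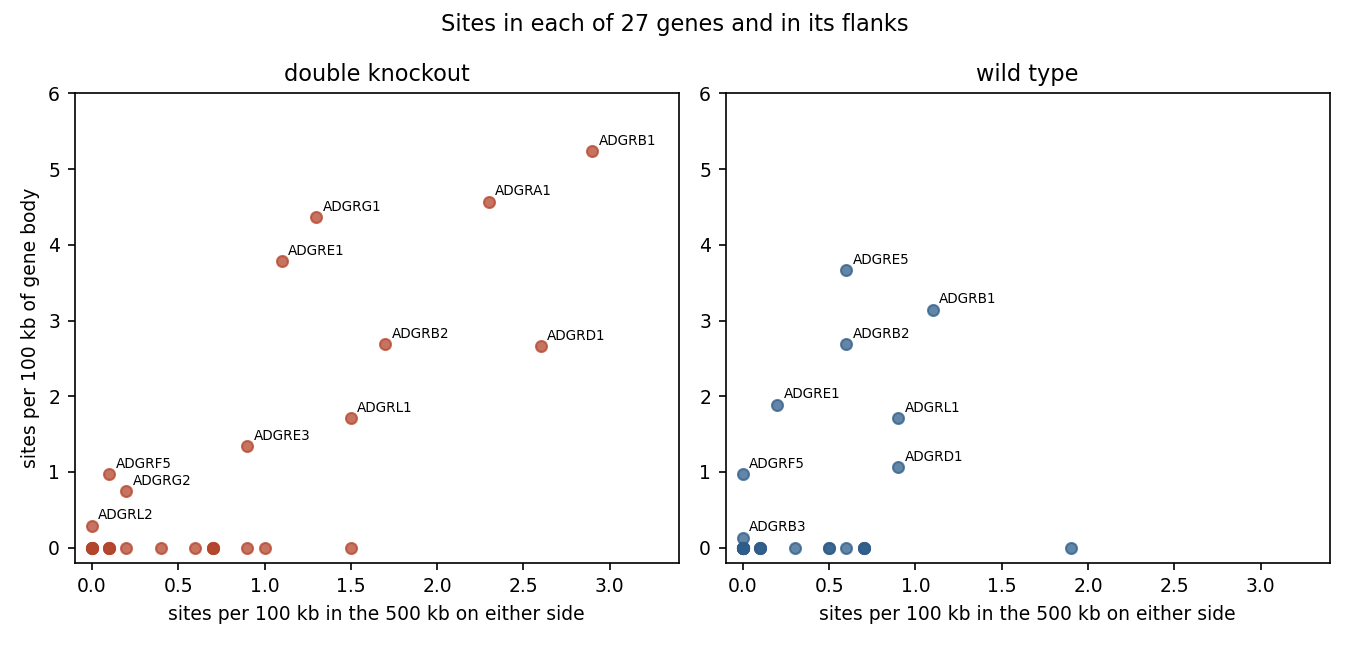
Sites per 100 kb in each of 27 genes against sites per 100 kb in the 500 kb on either side, for the double knockout (left) and wild type (right); each point is a gene and those with a site are named. ADGRB1 lies highest in the double knockout, at 5.24 per 100 kb with 2.90 in its flanks.

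No site of either list overlapped an examined start window. The window was the 250 bases before an annotated start (RefSeq, GRCh38.p14), and 35 such windows were used for 19 of the 28 members. Over all protein-coding genes 0.23% of 22199 windows were overlapped by a site, so a count of 0 among 35 is near the background. In 4 of the 19 genes a window lay within 10 kb of a site, against a background of 10.4% of protein-coding genes with a window. The nearest were those of ADGRE3 and ADGRB2, and in both cases the site lay upstream, outside the gene. The ADGRE3 window was 1.57 kb from a double-knockout site at 14676665 to 14677080 (16 reads, fold 6.55), and the nearest wild-type site, at 14678232 to 14678616 (11 reads, fold 6.30), lay farther out. The ADGRB2 window was 6.35 kb from a site found in both lists, at 31770936 to 31771500 in the double knockout (18 reads, fold 4.54) and 31771038 to 31771387 in wild type (10 reads, fold 4.35). Both windows are shown because no other window used here came closer to a site, and capitals mark runs of 3 or more thymines, the base that Tg forms from.
ADGRE3, chr19:14674845-14675094, minus strand: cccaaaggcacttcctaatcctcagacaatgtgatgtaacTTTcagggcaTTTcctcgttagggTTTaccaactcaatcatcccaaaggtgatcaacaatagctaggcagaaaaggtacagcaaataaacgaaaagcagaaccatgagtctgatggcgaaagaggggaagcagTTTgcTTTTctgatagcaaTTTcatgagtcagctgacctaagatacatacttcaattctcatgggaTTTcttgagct
ADGRB2, chr1:31764341-31764590, minus strand: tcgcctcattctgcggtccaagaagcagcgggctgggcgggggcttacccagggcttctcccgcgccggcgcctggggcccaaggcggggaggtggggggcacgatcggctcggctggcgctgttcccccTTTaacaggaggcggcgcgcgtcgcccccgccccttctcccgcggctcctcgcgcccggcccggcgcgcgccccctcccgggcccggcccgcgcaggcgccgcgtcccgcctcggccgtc
Thymine made up 25.6% of the ADGRE3 stretch and 13.2% of the ADGRB2 stretch, against a median of 20.8% over 35116 such stretches of all genes. The ADGRE3 stretch held 7 runs of TTT or longer and 7 of AAA, its other-strand counterpart. The ADGRB2 stretch held 1 run of TTT and 0 of AAA. Either run was present in 93.8% of all stretches. These letters describe the windows only, since no site lay in them.

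Subfamily C and the known partners of the receptors were counted in the same way. Of the CELSR genes, receptors of planar cell polarity, CELSR1 held 6 double-knockout sites and 1 wild-type site, and CELSR2 and CELSR3 held none. CELSR1 is 176 kb long, a length class where 22.2% and 9.53% of protein-coding genes held a site. CELSR2 and CELSR3 are 26.2 and 26.4 kb long, with backgrounds of 7.58% and 2.99% for all protein-coding genes under 50 kb, much shorter ones included. Of all protein-coding genes 0.554% held at least 5 double-knockout sites. Of 31 ligands and binding partners 11 held a double-knockout site and 3 a wild-type site, with 1.87 and 0.375 sites per Mb, below the 3.51 and 1.31 of all protein-coding genes. The list holds 12 genes over 200 kb, of which 5 held a double-knockout site and 0 a wild-type site, with backgrounds of 48.2% and 21.7% at that length. Over protein-coding genes of every length the backgrounds were 14% and 5.88%. NRXN2, a presynaptic neurexin, held 5 and 2, and TENM2, a teneurin that binds latrophilins, 3 and 0. Of 30 signalling partners 15 held a double-knockout site and 9 a wild-type site, with 5.97 and 2.99 sites per Mb. Of its 10 genes over 200 kb 7 held a double-knockout site and 4 a wild-type site, and of its 13 genes of 50 to 200 kb 6 and 4 did, with backgrounds of 22.2% and 9.53% for genes of 50 to 200 kb. DOCK1 (547 kb), the exchange factor that acts with ELMO1 downstream of ADGRB1, held 9 and 4. The synaptic scaffold genes SHANK2 (785 kb) and SHANK1 (60.5 kb) held 10 and 4 double-knockout sites and 5 and 3 wild-type sites. ARHGEF1, a RhoA exchange factor, held 5 and 5, and the adenylyl cyclase gene ADCY1 held 4 and 1. ELMO1 held none in either list.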

How the data were processed

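The sources used here are 2 lists of Tg sites in HEK293T, 1 for each genotype, assigned because each file's name carries the genotype word of the labelled libraries' titles. The submitters' processing notes name build hg38 and the tools Bowtie2, MACS2, bedtools and deepTools, without versions or roles. Whether the 2 libraries were pooled, and which control was used, is not given in the sources used here. By their columns the files are narrow peaks as MACS2 writes them, without the name column. The deposited score is 10 times the −log10 q, rounded down, in 100% of rows. The deposited fold enrichment is a ratio of summit reads to background, and the deposited −log10 p and −log10 q are the authors' caller's own values; the largest q was 0.0489 in the double knockout and 0.0450 in wild type. They were used to describe and filter sites within each list.

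Sites were assigned to a gene by the midpoint of the site in the gene body (RefSeq, GRCh38.p14, whose primary coordinates are those of hg38). Whole reads were recovered from fold and p as (reads + 1)/(background + 1) and a Poisson tail, matching the deposited −log10 p within 0.001 at 100% of sites. Library totals are unknown; summit reads had a median of 17 (6 to 452) in the double knockout and 13 (6 to 405) in wild type. Sites sharing at least 1 bp were called shared. The expected number of sites at wild-type depth was computed exactly from binomial thinning of reads. Flanks were 500 kb on either side. Functions were tested on simulated data. The alternatives were other rules for assignment, threshold, clustering, depth and overlap. Members with at least 2 sites in either list or a shared site (9 genes) were described with every site, except 1 that is not reported here and enters only the totals, other members briefly, and partner genes from fixed lists where they held at least 3 sites. The family and all gene lists were chosen with earlier results of these data known. Python 3.11.15, scipy 1.17.1 and pandas 2.3.3 were used. Exon positions and copy number were not used here.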

Additional observations from a re-analysis of the deposited data

How the results depend on the processing

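No paired analysis was possible because only 1 list is deposited per genotype, beside 2 labelled libraries, and no replicate could be left out for the same reason. Of 35 alternative values 25 stayed near the reported one, counts being held to a factor of 1.5 and densities and the read ratio to their counting intervals. Assignment by any overlap or by the summit, 1 kb added to each gene, and both other overlap rules changed no count. Above the wild-type median −log10 p, family sites numbered 12 in the double knockout and 6 in wild type (2.56 and 1.28 per Mb), in 9 and 6 genes. With 1 site per 100 kb they numbered 12 and 8, in 9 and 7 genes, with 2.56 double-knockout sites per Mb. The strongest site of each 100 kb was kept, whether inside or outside a family gene. The counts thus also reflect sites that lie close together, in the genes or around them. Thinned to the wild-type depth, 5.25 double-knockout sites in 4.60 genes would be expected, beside 6 in wild type. Divided by the ratio of depth alone (1.61), summed reads at shared sites gave a ratio of 0.968 in place of 0.919. Reads per site are few, so only large differences at single sites could be seen.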
